A study of Mus musculus with 4 samples.

Results

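The mineralization and bone matrix protein genes described here were the 10 genes Spp1, Ibsp, Bglap, Bglap2, Dmp1, Alpl, Phex, Enpp1, Ank and Phospho1, taken by symbol from the 32285 genes in each of 4 single-cell RNA libraries. The libraries came from 20-week-old C57BL/6J male mice, 1 library each of fracture callus under placebo (control callus), fracture callus under the glucocorticoid (GC) prednisolone (GC callus), and trabecular bone under placebo or prednisolone. For all 4 libraries the labels gave prednisolone or placebo as a subcutaneous slow-release pellet at 6.25 mg/kg/d and collection at week 2, whereas the study's text describes daily injection in its fracture model. The sources used here do not state how many mice went into a library. With 1 library per group, no difference between GC and control has a replicate check or a test. Intervals given below are 95% intervals that cover counting error only.

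Bone mineral is laid down on a collagen matrix in which acidic secreted proteins bind mineral and cells. Alkaline phosphatase and the phosphatase Phospho1 supply inorganic phosphate, while Enpp1 and the transporter Ank raise extracellular pyrophosphate, which inhibits mineral growth. In a healing fracture, hypertrophic chondrocytes of the cartilage template and osteoblasts both make mineralizing matrix.

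The acidic proteins osteopontin (Spp1), bone sialoprotein (Ibsp) and dentin matrix protein 1 (Dmp1) lie in 1 gene cluster. In the GRCm38 annotation Dmp1 was at chr5:104202613-104214102, Ibsp at chr5:104299171-104311469 and Spp1 at chr5:104435118-104441050, all on the plus strand and within 238438 bases. The osteocalcin genes Bglap (chr3:88383501-88384464) and Bglap2 (chr3:88377736-88378699) lay 4801 bases apart on the minus strand. Their transcripts matched at 434 of 440 aligned bases, with 0 differences in the last 100 bases, and the libraries read the 3′ ends of transcripts. The split of reads between Bglap and Bglap2 is therefore uncertain, and calls of both genes in a class may not be independent. The promoters of Spp1, Bglap and Dmp1, which all hold the motif marked here, are shown. Ibsp is also compared throughout, but its promoter had no match and is not shown. Each is the RefSeq sequence (GRCm38.p6) of the 250 bases before the start, read 5′ to 3′ on the gene's strand (Spp1 chr5:104434861-104435110, plus; Bglap chr3:88384467-88384716, minus; Dmp1 chr5:104202367-104202616, plus), with the Runx core motif ACCACA in capitals.
Spp1: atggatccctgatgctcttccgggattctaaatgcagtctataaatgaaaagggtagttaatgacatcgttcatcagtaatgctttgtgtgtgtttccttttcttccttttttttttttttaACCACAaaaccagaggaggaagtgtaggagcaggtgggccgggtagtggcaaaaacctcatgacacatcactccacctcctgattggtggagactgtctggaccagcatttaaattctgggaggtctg
Bglap: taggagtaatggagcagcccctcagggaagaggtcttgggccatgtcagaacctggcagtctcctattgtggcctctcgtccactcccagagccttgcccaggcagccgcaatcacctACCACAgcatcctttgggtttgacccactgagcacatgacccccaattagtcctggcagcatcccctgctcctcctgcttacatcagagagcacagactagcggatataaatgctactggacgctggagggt
Dmp1: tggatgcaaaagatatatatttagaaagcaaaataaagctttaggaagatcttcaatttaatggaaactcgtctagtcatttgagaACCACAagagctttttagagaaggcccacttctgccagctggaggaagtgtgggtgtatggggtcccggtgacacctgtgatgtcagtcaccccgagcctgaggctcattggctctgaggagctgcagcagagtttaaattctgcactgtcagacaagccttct
The motif began 128 bases before the start in Spp1, 132 in Bglap and 164 in Dmp1. Of the 9 members with a promoter in the RefSeq table, 4 held ACCACA on either strand (TGTGGT on the other), the remaining one being Enpp1 at 144 bases. Among all 32851 promoter windows of the same length, 14.05% held it. Ibsp, Alpl, Phex, Ank and Phospho1 had no match in this window. A match is a description of the letters, and binding was not measured.

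The 4 libraries held between 41239842 and 95852254 unique molecular identifiers (UMIs, each counting 1 captured transcript molecule). After filtering, 6714 control callus, 6890 GC callus, 3832 control trabecular and 4604 GC trabecular cells were kept, with between 3249 and 6310 UMIs at the median, and pairs of libraries shared between 6 and 10 cell barcodes. The GC callus library stood apart in that its table listed only 7762 barcodes, none under 500 UMIs, against 6794880 listed in each of the others. Clusters left unnamed by the naming rule held 23.6% of GC callus cells and 3.56% of control callus cells. Many had chondrocytes as their closest class. They were set aside mostly for leading genes of another class or lineage, low UMI counts or a mostly unnamed parent cluster. An example of 184 GC and 0 control cells passed 12 chondrocyte markers. Named classes therefore cover unequal parts of the 2 callus libraries. Cell classes were named from markers that contained none of the 10 members, and the members were kept out of clustering. The class called osteoblasts or osteocytes (84 control and 90 GC callus cells) had UMIs of all 11 of its markers in both libraries, with Col1a1 at 72420.3 and 91724 CPM (a gene's UMIs relative to all UMIs of the class, on a common scale) and the osteocyte gene Sost at 14.2 and 25.1 CPM. Runx2 (379 and 260 CPM), Sp7 (191 and 160), Ifitm5 (496 and 424) and Dkk1 (25.1 and 19.2) were lower in GC callus, and the other markers higher. By the naming rule each of its clusters passed 9 or 10 of these 11 markers. In trabecular bone no cluster was named osteoblasts or osteocytes, though a small stromal cluster scored near that class, as given below.

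Across the 18 callus classes with at least 15 cells in each library, 7 of the 10 members had their highest level in osteoblasts or osteocytes. These were Ibsp, Bglap, Bglap2, Dmp1, Alpl, Phex and Phospho1. The share of all genes highest in that class was not computed, so this count has no background. Enpp1 and Ank were highest in stromal and skeletal progenitor cells, and Spp1 in hypertrophic chondrocytes. In the largest stromal cluster, however, Ank was lower than in hypertrophic chondrocytes, as given below. Levels are CPM over both libraries, with the gap to the next class read against counting error.

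Osteopontin, which binds mineral and integrins, reached 20247 CPM in hypertrophic chondrocytes. Its level was 13431 CPM in osteoblasts or osteocytes, 9158 in stromal cells, 6899.6 in mature neutrophils and 6315 in chondrocytes. Bone sialoprotein, which nucleates mineral, stood at 41682 CPM in osteoblasts or osteocytes and at 13304 and 13261 in chondrocytes and hypertrophic chondrocytes. The intervals of both chondrocyte values overlap. In neutrophils Ibsp reached 480.4 CPM, a far smaller fraction of its top level than Spp1 held there.

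The remaining matrix genes were restricted more closely to bone cells. Bglap, the vitamin K-dependent osteocalcin, stood at 506 CPM (480 to 532) in osteoblasts or osteocytes and at 50.3 in hypertrophic chondrocytes. Bglap2 was at 214 CPM there and at under 5 CPM in every other of the 18 classes. Dmp1, an osteocyte protein needed for phosphate control, was at 953 CPM in osteoblasts or osteocytes and 72.2 in hypertrophic chondrocytes. Phex, the endopeptidase-like membrane protein lost in X-linked hypophosphatemia, followed at 579 and 149 CPM.

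The enzymes and pyrophosphate genes had flatter orders. Alpl, tissue-nonspecific alkaline phosphatase, was 1512 CPM in osteoblasts or osteocytes, 1293 in chondrocytes and 1101 in hypertrophic chondrocytes, so the top class was 1.17-fold (1.13 to 1.20) above the next. Enpp1, which makes pyrophosphate, was 363 CPM in stromal cells and 225 in hypertrophic chondrocytes. Ank, which raises extracellular pyrophosphate, was 382 and 200.04 CPM in the same classes. Phospho1 was scarce, at 8.25 CPM (5.28 to 12.3) in osteoblasts or osteocytes and 4.99 (3.05 to 7.70) in mature neutrophils, and these intervals overlap.

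**Figure D1:**
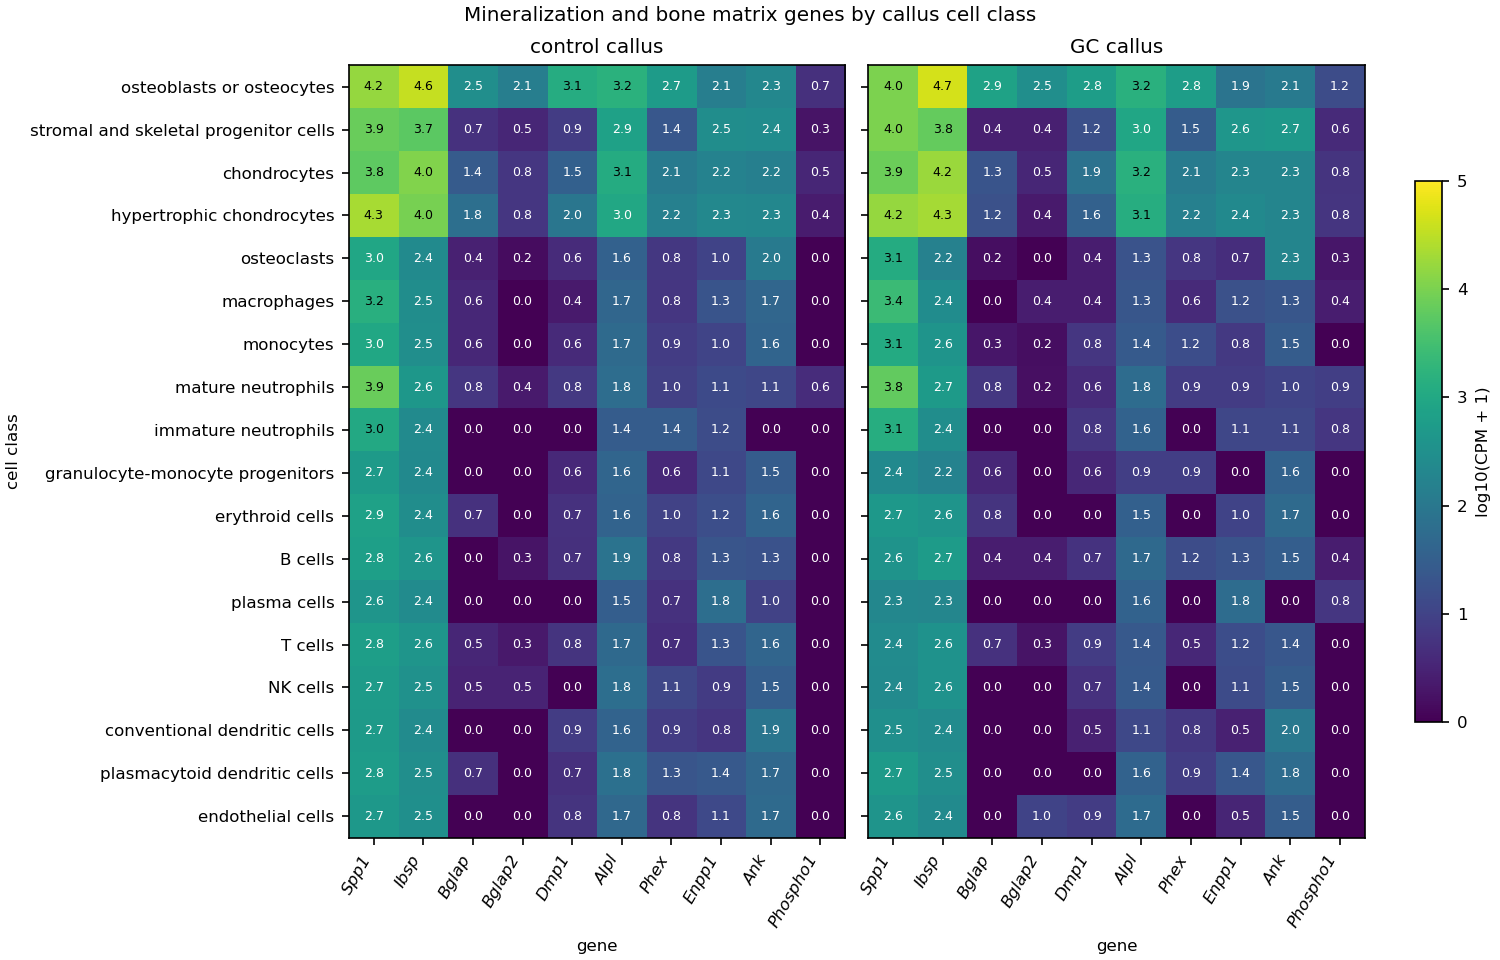
Heat maps of the 10 members (columns) in the 18 callus cell classes (rows), control on the left and GC on the right, with colour and printed value giving log10(CPM + 1). The osteocalcin genes and Dmp1 drop steeply outside osteoblasts or osteocytes (Bglap 506 CPM there and 50.3 in hypertrophic chondrocytes over both libraries), whereas Alpl stays between 1101 and 1512 CPM across the 3 highest classes.

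Chondrocytes, which were far more numerous than bone cells, held much of the UMIs of most members, with the osteocalcin genes in GC callus as an exception. Chondrocytes and hypertrophic chondrocytes held 43.8% and 42.7% of Spp1 UMIs in control callus and 45.9% and 22.3% in GC callus. Osteoblasts or osteocytes held 3.95% and 3.25%. For Ibsp, chondrocytes held 72.7% of control and 59.5% of GC UMIs. Osteoblasts or osteocytes held 17.8% of Bglap UMIs in control callus and 58.8% in GC callus, and 40.2% and 75.7% of Bglap2 UMIs. The control shares were 51.3% and 70.8% once a pair of barcodes removed as likely doublets, described below, was counted in the class. No removed barcode was counted for the GC shares. For Dmp1 the share in that class was 40.9% in control and 21.5% in GC callus, and the share in chondrocytes was 33.5% and 51.9%. Unnamed clusters held 1.38% of control Dmp1 UMIs and 19.5% of GC Dmp1 UMIs.

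In osteoblasts or osteocytes as filtered here, osteocalcin was higher and Dmp1 lower in the GC library. The direction of Bglap and of Bglap2 turned in 4 alternative analyses each, described below, so it is not settled. Bglap was at 299 CPM in control and 742 CPM in GC callus, a ratio of 2.48 (2.22 to 2.78, from 465 and 1006 UMIs). Bglap2 was at 139.6 and 299.6 CPM, a ratio of 2.15 (1.82 to 2.54). Dmp1 was at 1252 and 609 CPM, a ratio of 0.486 (0.448 to 0.528). A gene was called different by size where its CPM differed at least 2-fold and both libraries together held at least 50 UMIs. By that measure 2 of 9 members with enough UMIs were higher and 1 was lower, against 1.2% higher and 2.36% lower among all 5762 genes measured in the class. The median log2 ratio over the 9, with 5 CPM added to each level, was -0.07, and over all genes it was -0.05.

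The other members differed less in these cells. Spp1 stood at 15969.6 CPM in control and 10518.5 in GC (ratio 0.659, 0.645 to 0.672), while Ibsp stood at 36898 and 47169 (1.28, 1.26 to 1.29). The Spp1 to Ibsp UMI ratio was accordingly 0.433 in control and 0.223 in GC. Enpp1 was 136 and 81.9 CPM (0.604, 0.475 to 0.763) and Ank 206 and 116 CPM (0.561, 0.461 to 0.681), so both pyrophosphate genes were lower in GC callus without reaching 2-fold. Alpl was 1544 and 1475 CPM, and its ratio of 0.956 (0.90 to 1.01) spanned 1. Phex was 545 and 617 CPM (1.13, 1.03 to 1.25). Phospho1 had 6 and 18 UMIs, too few for a call.

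**Figure D2:**
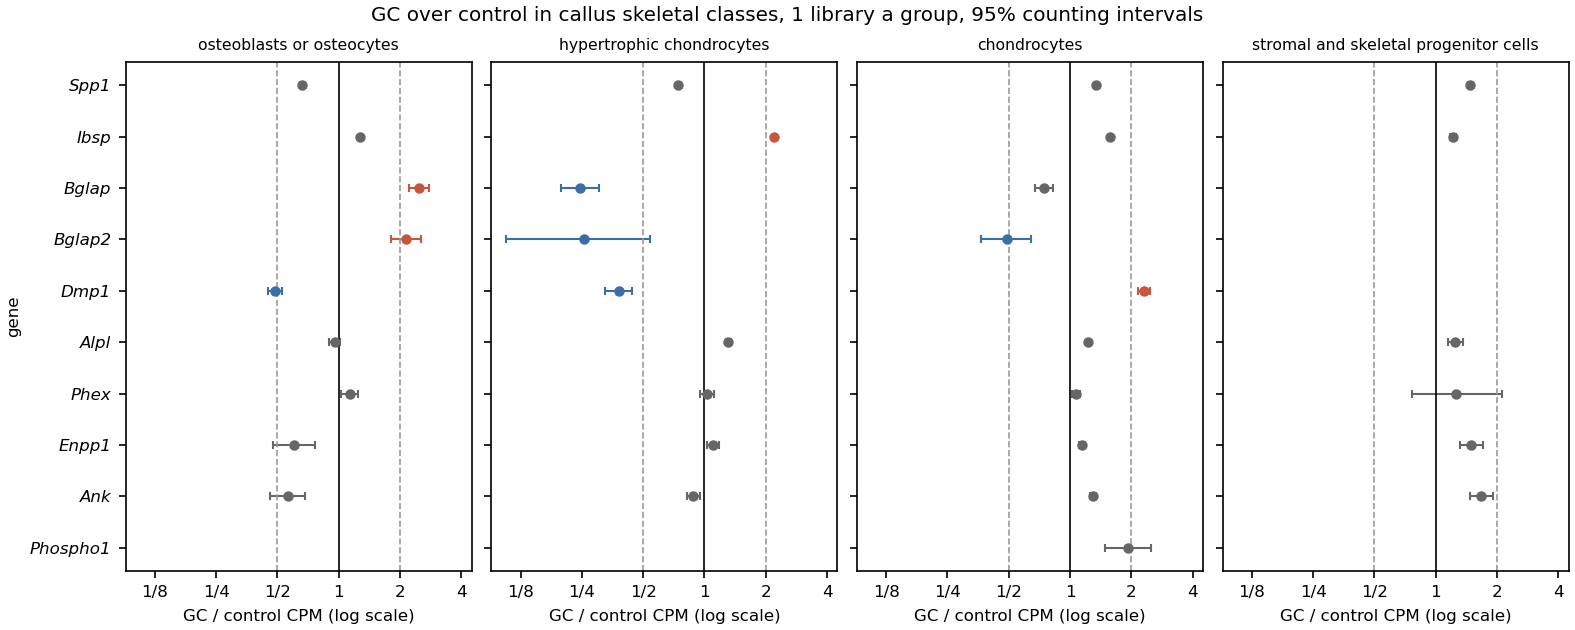
Ratio of GC to control level for each member in callus osteoblasts or osteocytes, stromal cells, chondrocytes and hypertrophic chondrocytes, on a log axis with 95% exact intervals for counting error, for members with at least 50 UMIs. Dashed lines mark 2-fold, and red and blue points were called higher and lower. Bglap lies at 2.48 in osteoblasts or osteocytes and at 0.245 in hypertrophic chondrocytes, on opposite sides of 1. With a pair of removed control barcodes added to the class, and no removed GC barcode, the first was 0.553.

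The 4 clusters of the class did not share these differences. In the cluster led by Col1a1, Col1a2 and Hhip (27 cells in each library), Bglap was 108 CPM in control and 983 in GC, while Spp1 was 17735 and 17329. In the cluster led by Col1a1, Col1a2 and Ifitm5 (24 and 18 cells), Spp1 was 18376.5 and 4798 CPM and Dmp1 1195 and 96.9 CPM. No other cluster of the class had so large a gap in Spp1. In the cluster led by Cxcl12 and Mmp9, Bglap was 1308 and 1343 CPM. In the cluster with Panx3 among its leading genes (15 and 21 cells), Ibsp was 59381 and 96921 CPM and Dmp1 was 15.5 and 50.6 CPM. Dmp1 was lower in GC in 3 of the 4 clusters, and Bglap was higher in all 4, though by little in the cluster led by Cxcl12.

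Osteocalcin and Dmp1 UMIs were concentrated in few cells. At least 1 Bglap UMI was found in 29 of the 84 control and 29 of the 90 GC cells, and the 10 with most held 89.7% and 93.7% of them. The single highest cell held 37.2% and 29.0%. Dmp1 was found in 37 and 32 cells, with 17.4% and 34.1% in the highest cell. By contrast Ibsp was found in 82 and 89 cells, with 45.5% and 58.9% in the top 10. After each cell was thinned to 1000 UMIs, which left out 1 control cell, Bglap was detected in 9.64% (4.25 to 18.1) in control callus and in 13.3% (7.08 to 22.1) in GC callus. Unthinned shares were 34.5% and 32.2%. In B cells, which should lack osteocalcin, the thinned share was 0% of 587 cells and 0.286% of 350 cells, with median depths of 1914 and 1661.5 UMIs against 12763 and 12821.5 in osteoblasts or osteocytes. The thinned share for Dmp1 was 28.9% (19.5 to 39.9) in control and 15.6% (8.77 to 24.7) in GC osteoblasts or osteocytes, and these intervals overlap.

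The higher osteocalcin of GC osteoblasts or osteocytes depended on barcodes removed as likely doublets. Of the Bglap UMIs in called control callus barcodes, 45.1% lay in removed barcodes, and 23.9% in GC callus, although removed barcodes were 5.46% and 5.51% of the total. A pair of removed control barcodes held 1209 and 586 Bglap UMIs, 37.6% of all 4770. Both had more total UMIs than most cells (72292 and 55690), high Col1a1 (178913 and 72562 CPM), and the second also had Col2a1 at 27976 CPM. With this pair added back to the control class, Bglap was 1343 CPM in control and the ratio was 0.553 (0.513 to 0.596). The GC callus barcode with most Bglap (396 UMIs) had also been removed, and no removed GC barcode was added back. The ratios with the pair are therefore corrected on the control side only. The Bglap2 ratio became 0.643 (0.569 to 0.726), whereas that of Dmp1 was 0.525 (0.484 to 0.570). Whether these barcodes were single cells was not tested. Among the 20 barcodes with most Bglap UMIs, 5 of control and 3 of GC callus were removed, while 3 of control and 10 of GC were kept as osteoblasts or osteocytes.

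**Figure D3:**
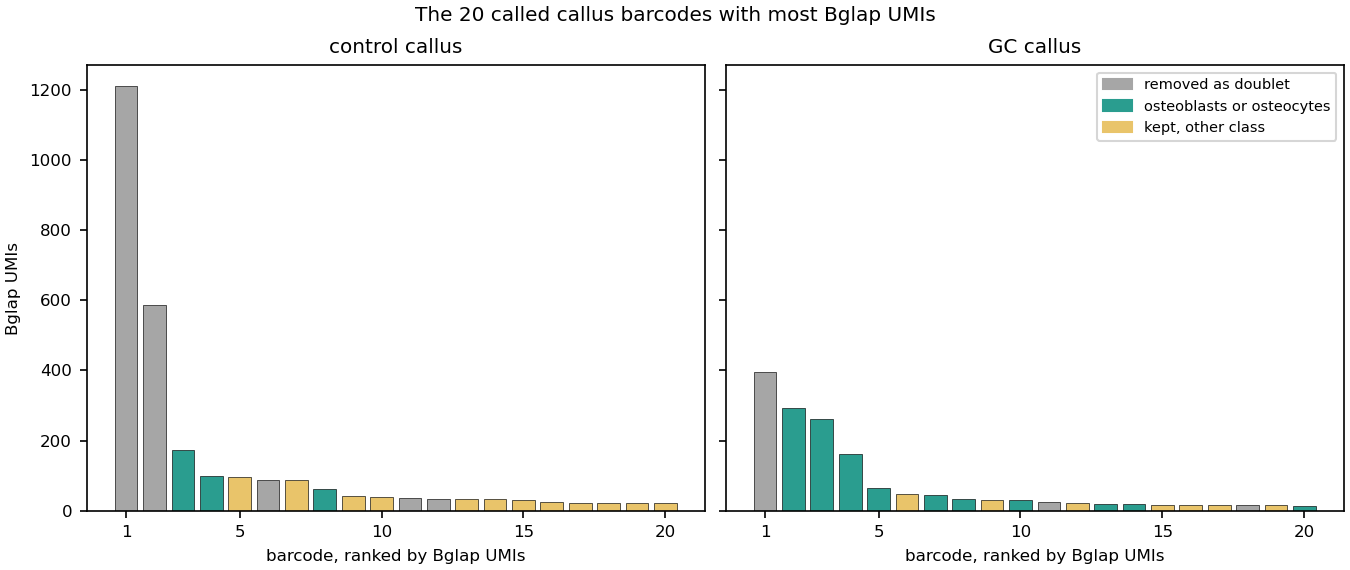
Bglap UMIs in the 20 barcodes with most Bglap of each callus library, marked by whether the barcode was kept as osteoblasts or osteocytes, kept in another class or removed as a doublet. The 2 highest control barcodes (1209 and 586 UMIs) were removed, as was the highest of GC callus (396 UMIs).

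In hypertrophic chondrocytes, the cells that end the cartilage template, Ibsp was higher and osteocalcin and Dmp1 were lower in GC callus. Ibsp stood at 9526 CPM in control and 20836 in GC (ratio 2.19, 2.17 to 2.21). Spp1 stood at 22155 and 16377 CPM (0.739, 0.734 to 0.745). The Spp1 to Ibsp ratio was thus 2.33 in control and 0.786 in GC, with its order turned between the libraries. Bglap was 67.0 and 16.4 CPM (0.245, 0.197 to 0.303), and Dmp1 90.8 and 34.5 CPM (0.380, 0.326 to 0.442). Bglap2 was called lower with only 63 and 8 UMIs (0.258, 0.107 to 0.539). Of 9 members measured, 1 was called higher and 3 lower, against 3.25% higher and 2.34% lower among all 10340 genes. The median log2 ratio of the 9 was -0.18, and that of all genes 0.07.

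The phosphate and pyrophosphate genes with enough UMIs stayed within 1.5-fold in these cells, and Phospho1 had only 17 and 29 UMIs. Alpl was 999 and 1309 CPM (1.31, 1.27 to 1.35), Phex 147 and 152, Enpp1 218 and 240.1, and Ank 208 and 184. After thinning to 1000 UMIs, Bglap was detected in 5.76% of 573 control and 1.72% of 348 GC cells (unthinned 45.9% and 16.1%). Ibsp was detected in 76.8% and 83.3%, where B cells gave 32.4% and 38.3%. The class was made of different clusters in the libraries, since the cluster led by Rbp4, Mmp13 and Col10a1 held 265 control and 14 GC cells. Bglap stayed at least 2-fold lower in all 16 alternative analyses that gave a value, with log2 ratios of -1.96 to -1.26. The join of both chondrocyte classes, given below, was not counted among these. In that join Bglap was lower by under 2-fold and Dmp1 was higher in GC callus. The log2 ratios of Ibsp and Dmp1 stayed past 2-fold in only 8 of 17 alternatives each, and without doublet removal they were 0.53 and -0.24.

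In chondrocytes, 1840 control and 1191 GC cells, the matrix genes Ibsp, Spp1 and Dmp1 were all higher in GC callus. Ibsp was 11066.5 CPM in control and 17428.5 in GC (1.57, 1.57 to 1.58). Spp1 was 5629 and 7579 CPM (1.35, 1.34 to 1.35). Dmp1 was 32.7 and 75.1 CPM, a ratio of 2.30 (2.15 to 2.46). That direction was opposite to the one in osteoblasts or osteocytes and in hypertrophic chondrocytes as named here. The contrast with hypertrophic chondrocytes depended on how clusters were named, as given below. Bglap was 25.8 and 19.2 CPM (0.744), and Bglap2 5.09 and 2.49 CPM (0.489, 0.367 to 0.643). Phospho1, which among the named callus classes had enough UMIs only in chondrocytes, was 2.43 and 4.68 CPM (1.92, 1.48 to 2.49). Alpl, Phex, Enpp1 and Ank had ratios between 1.07 and 1.30. With 5 CPM added to each level, the log2 ratio of Bglap2 was only -0.43, so its call rests on a low level. Of 10 members, 1 was called higher and 1 lower, against 2.27% and 4.89% of 13050 genes. Their median log2 ratio was 0.33, and that of all genes -0.01. Across 17 alternatives the log2 ratio of Spp1, 0.43 here, was between 0.0004 and 0.68, and that of Ibsp between 0.60 and 1.10. Dmp1 stayed past 2-fold in 9 of the 17 (0.67 to 1.34).

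The border between the chondrocyte classes moved some of these ratios. The cluster led by Rbp4, Bmp2 and Tnfrsf11b, with 28 control and 391 GC cells, was named chondrocytes while its Spp1 was 26259.7 and 15292.5 CPM, near the hypertrophic level. Its highest marker score was for hypertrophic chondrocytes, with chondrocytes next at 0.787 of that score, and its name followed its leading genes. With names by marker score alone, the log2 ratio of Dmp1 in hypertrophic chondrocytes was -0.03. With both classes joined, Ibsp was 1.68-fold and Dmp1 1.53-fold of control, Spp1 1.03-fold, Bglap 0.550 and Bglap2 0.445. More than 90% of cells came from 1 library in 5 of 12 chondrocyte clusters and 1 of 6 hypertrophic clusters.

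Spp1 and Ibsp peaked in different chondrocyte clusters. Spp1 was highest in hypertrophic clusters led by Mmp13 and Tnfsf11 (37842 CPM control, 24209 GC) and by Col10a1 and Mmp13 (34286 and 37197). Ibsp was highest outside osteoblasts in the cluster led by Ihh and Hpgd (24648 and 45668 CPM) and in that led by Cdkn1c and Col1a2 (33098 and 30613). In the cluster led by Mmp13 and Tnfsf11, Ibsp was 7608 and 12777 CPM. Both of these Ibsp-rich clusters had Pth1r, the parathyroid hormone receptor, and Panx3 among their leading genes. Mmp13, the collagenase of terminal hypertrophy, was among the leading genes of both Spp1-rich clusters and also of the cluster led by Ihh and Hpgd.

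**Figure D4:**
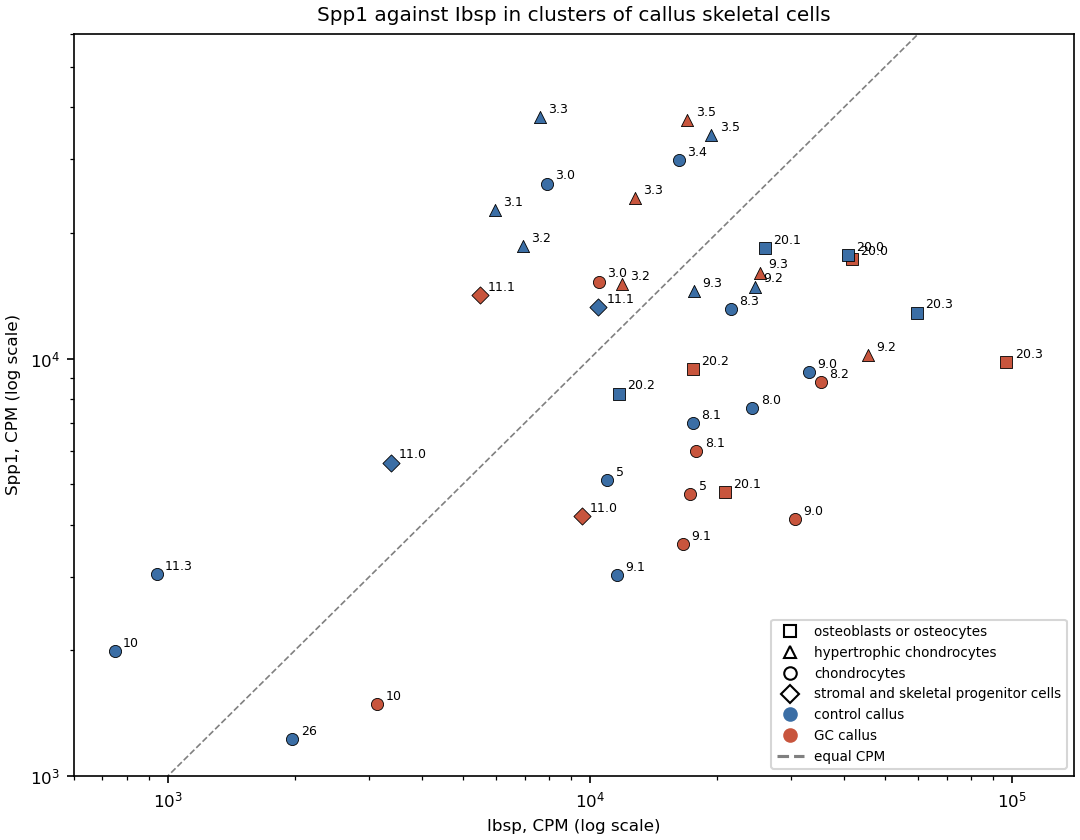
Spp1 against Ibsp in callus chondrocyte, hypertrophic, osteoblast and stromal clusters, both in CPM on log axes, 1 point per cluster and library with at least 15 cells, labelled by cluster number, with a dashed line at equal CPM. The cluster led by Mmp13 and Tnfsf11 (label 3.3) sits at high Spp1 (37842 CPM in control) and low Ibsp (7608 CPM), and the osteoblast clusters sit at the high end of Ibsp.

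In stromal and skeletal progenitor cells, 93 control and 127 GC cells, 6 members had enough UMIs and each was higher in GC callus, but 0 reached 2-fold. Among all 6351 genes 1.92% were called higher and 3.24% lower. Spp1 was 7160.1 and 10552 CPM (1.47, 1.44 to 1.51), Ank 274 and 457 CPM (1.67, 1.47 to 1.91), and Enpp1 281 and 421 CPM (1.5, 1.31 to 1.71). Ibsp (1.21), Alpl (1.25) and Phex (1.26, 0.766 to 2.12) were nearer to 1. Across 17 alternatives, Ank was lower in GC callus in 7, and Ibsp passed 2-fold in 8 with log2 ratios up to 1.79 against 0.28 here. The median of the 6 log2 ratios was 0.44, and that of all genes -0.03. Within the clusters that make up most of the class, these differences were smaller or turned in direction. In the cluster led by Aspn and Igfbp5 (63 and 48 cells), Ank was 124 and 112 CPM, Enpp1 242 and 243, and Spp1 5632 and 4194. In the cluster led by Tnn and Ecrg4 (21 and 70 cells), Ank was 691 and 694 CPM, Enpp1 451 and 538, and Spp1 13262 and 14215. The GC library held more cells of the second cluster, where levels of these 3 genes were higher in both libraries. That second cluster scored highest for chondrocytes, with stromal and skeletal progenitor cells next at 0.757 of that score. Its name followed its leading genes, so the class name is less certain for it.

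Osteopontin is also made by osteoclasts and macrophages. In osteoclasts (114 and 119 cells) Spp1 was 912 and 1199 CPM (1.31, 1.24 to 1.40), and Ank 109.9 and 191 CPM (1.74, 1.48 to 2.05). Without doublet removal the log2 ratio of Spp1 in osteoclasts turned from 0.39 to -0.22, and with the B cell level subtracted it was 1.69. B cells also carried Spp1, at the levels given below. The part of free RNA in the osteoclast, macrophage and monocyte levels was not tested. In osteoclasts 4 members had enough UMIs and 0 were called by size, where 1.45% of genes were called higher and 2.07% lower. In macrophages (167 and 180 cells) Spp1 was 1454 and 2514 CPM, a ratio of 1.73 (1.60 to 1.87), and this lay in the cluster led by C1qa and C1qb with Gpnmb and Trem2 (2158 and 5205 CPM, 40 cells in each). In the cluster with H2-Aa and Cd74 it was 942 and 673 CPM. The largest cluster of the class (96 and 108 cells) was led by Cd36, Apoc2 and Olr1, with Ace, Cx3cr1 and Treml4 also leading. It passed 3 macrophage markers and had 0 of them among its leading genes, so the class name is less certain for it. In macrophages 0 of 2 members measured were called, where 2.08% of genes were higher and 2.52% lower. In monocytes Spp1 was 952 and 1148 CPM (1.21, 1.14 to 1.28), and of 4 members 1 was called lower, Alpl with 120 and 48 UMIs (0.481, 0.337 to 0.678), where 3.94% of genes were higher and 3.51% lower. With macrophages and monocytes joined it was 1076 and 1502 CPM (1.40, 1.33 to 1.46). In macrophages and in osteoclasts, Spp1 UMIs per Ibsp UMI were 5.17 and 3.68 in control and 9.14 and 7.70 in GC, higher than in the bone, stromal and cartilage classes of the same library.

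Mature neutrophils had more Spp1 than other blood cell classes of the callus. The level was 7250.5 CPM in control (1681 cells) and 6389 in GC (1326 cells), with a ratio of 0.881 (0.860 to 0.903). Different clusters held most of the class, as the cluster led by Il1b and Cxcl2 had 1407 control and 95 GC cells and that led by S100a9 and S100a8 had 154 and 1086. Spp1 was 7779 and 6025 CPM in the first and 9301 and 6773 in the second. After thinning, Spp1 was detected in 78.5% of 1394 control and 66.0% of 951 GC neutrophils (unthinned 84.1% and 69.3%). In B cells the shares were 51.6% of 587 and 29.7% of 350 (unthinned 70.9% and 47.7%), at 659 and 369.9 CPM. Ibsp was detected in 34.9% and 40.5% of neutrophils and in 32.4% and 38.3% of B cells, so neutrophils stood apart from B cells for Spp1 but not for Ibsp. Thinning kept those 1394 of 1681 control and 951 of 1326 GC neutrophils. Empty droplets of control callus carried Spp1 at 7223 CPM and Ibsp at 5273 CPM, a ratio of 1.37, while neutrophils had 16.4 Spp1 UMIs per Ibsp UMI in control and 11.9 in GC. The part of free RNA in these levels was not tested.

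**Figure D5:**
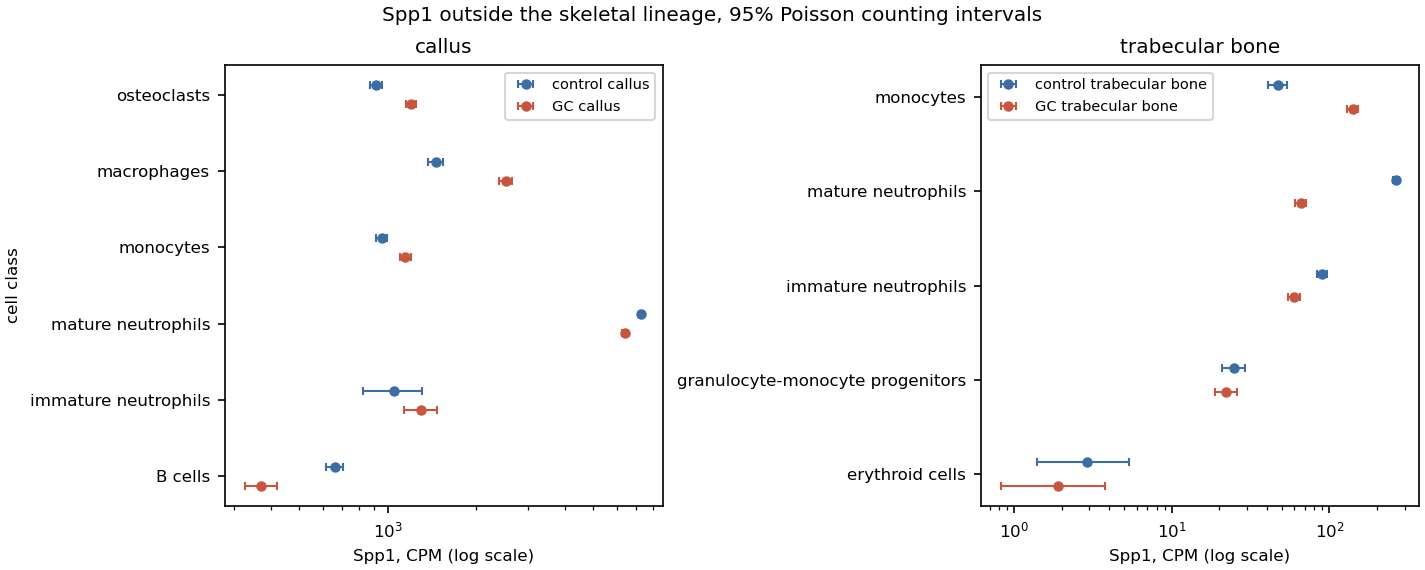
Spp1 level in CPM (log axes of different range) in osteoclasts and blood cell classes of callus (left) and trabecular bone (right), control in blue and GC in red, with 95% exact intervals for counting error. In callus, mature neutrophils sit at 7250.5 and 6389 CPM, above macrophages at 1454 and 2514 and B cells at 659 and 369.9.

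Summed over all kept callus cells, called the whole callus below, no member reached 2-fold. Among all 15092 genes 3.29% were called higher and 2.17% lower. In such sums, fewer cells of a type and less RNA per cell cannot be told apart. Ibsp was 9473 CPM in control and 14446 in GC (1.52, 1.52 to 1.53). Spp1 was 7994 and 8147 CPM (1.02), and Bglap 33.3 and 31.8 CPM (0.955, 0.898 to 1.02). Phospho1 was 1.95 and 3.83 CPM (1.97, 1.59 to 2.44). The median log2 ratio of the 10 was 0.22, and that of all genes 0.03. The log2 ratio of Bglap was -0.06 in the sum, and -0.79 with at least 500 genes per cell. That of Bglap2 was 0.33 (6.88 and 9.96 CPM), and it was below 0 in 4 of 8 alternatives.

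Trabecular bone, flushed of marrow plugs before digestion, held little RNA of the members. Over all kept cells, called whole trabecular bone below, Spp1 was 104 CPM in control and 60.6 in GC (0.581, 0.551 to 0.612). Bglap had 300 UMIs in control and 17 in GC, Bglap2 254 and 12, Alpl 108 and 40, and Ibsp 13 and 277. Dmp1 had 0 UMIs in the kept cells of both, which allows levels of up to 0.0873 and 0.079 CPM. Over every barcode of the 2 libraries, empty droplets included, it had 2 and 3 UMIs. Of 8 members measured, 1 was called higher and 3 lower, against 2.33% and 2.94% of 12157 genes. The median log2 ratio of the 8 was -0.25, and that of all genes -0.03. Ank (0.971, 0.808 to 1.17), Enpp1 (1.18, 0.764 to 1.82) and Phospho1 (0.678, 0.382 to 1.19) had ratios whose intervals spanned 1.

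The trabecular differences in Bglap, Bglap2, Alpl and Ibsp rested largely on a handful of cells in the stromal class. That in Spp1 did not, as stromal cells held 4 Spp1 UMIs in control and 223 in GC. The 13 control stromal cells held 293 of the 300 Bglap UMIs, in 4 cells, with 112, 102 and 47 in the highest 3. They held 250 Bglap2 UMIs, also in 4 cells. Of the Alpl UMIs, 76 of 108 in control lay in 3 stromal cells, and 33 of 40 in GC lay in 2. Among the 32 GC stromal cells, 274 of the 277 Ibsp UMIs lay in 1 cell, as did 215 of 223 Spp1 UMIs, while Bglap had 13 UMIs. Because the control class has under 15 cells, it was not compared between libraries. Bglap and Bglap2 stood at 2460 and 2099 CPM in control stromal cells, against 506 and 214 CPM in callus osteoblasts or osteocytes. The stromal cluster led by Col1a1 and Col1a2 (5 control and 3 GC cells) had osteoblasts or osteocytes next at 0.836 of its score. Whether the osteocalcin-rich cells were osteoblasts was not tested. Mature neutrophils held 2353 of the 3587 trabecular Spp1 UMIs in control and 625 of 2303 in GC, at 264.5 and 65.8 CPM (0.249, 0.227 to 0.272). Different clusters made up this class, such as that led by Cstdc4 and Wfdc17 with 718 control and 61 GC cells and that led by Cstdc4 and Cstdc5 with 12 and 793. Monocytes were at 46.9 and 140.5 CPM, with 427 of the 654 GC UMIs in 1 cell. Empty droplets there carried Spp1 at 139.7 and 62.9 CPM. Callus neutrophils were at 7250.5 and 6389 CPM, and the callus and trabecular libraries were not tested against each other.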

How the data were processed

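Cells of fracture callus and trabecular bone were profiled with 10x Genomics 3′ chemistry in 4 libraries. The authors deposited whole-number UMI counts per gene and barcode, unnormalized. The submitters' processing notes name Cell Ranger 5.0.1, Seurat 3.2.0 and mm10, while the file headers name an earlier Cell Ranger release. In the GC callus library the deposited counts cover called barcodes only, and in the others every barcode. The sources used here give no cell annotation.

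Cells were called from the 3 full tables by a UMI cutoff (10% of the 99th percentile of the top 3000 barcodes) and a Monte Carlo test against barcodes ranked 45001 to 90000 (from 500 UMIs, 10000 simulations, false discovery rate 0.01). Cells needed at least 200 genes and at most 10% mitochondrial UMIs, and doublets were removed at 0.8% per 1000 cells by neighbours among simulated doublets. Each tissue was clustered on 2000 variable genes (30 components, 15 neighbors, Leiden resolution 1), without the members, 15 mineralization partners and 7 receptors. Names for clusters came from 166 markers, covering 24 classes, by a rule set after clusters were seen. A cluster took its second-best class where that class supplied more leading markers and scored at least 0.7 of the best. A cluster stayed unnamed where its leading genes belonged more to another lineage or, for skeletal classes, to another skeletal class. It also stayed unnamed where markers of another lineage or class scored too highly. The same held where the UMI count of a skeletal cluster was low, or where most cells of the parent cluster stayed unnamed. Callus T cells, conventional dendritic cells and hematopoietic stem and progenitor cells kept their names although other classes supplied more of the leading markers in a cluster of each. The T cells and dendritic cells count among the 18 classes whose levels are ordered. No comparison of members between libraries is given for these classes, only a count of mineralization partners.

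UMIs were summed per class and library as CPM with exact Poisson intervals, and ratios have exact conditional intervals. Log2 ratios add 5 CPM. Classes with at least 15 cells in each library were compared. A ratio needed 50 UMIs, and at least 2-fold was called different. Where a class was at 0, 3 counts set the limit. Named genes were all of the lists, plus, for each member, the 3 genes with the most similar levels over callus classes among genes of at least 200 UMIs. Members and lists were chosen with earlier results of these data known. Another 15 analyses changed a choice at a time, and 4 more were chosen after seeing the data. The steps were tested on simulated data. Sequences and positions came from RefSeq and Ensembl tables of GRCm38. The software was Python 3.11.15, leidenalg 0.10.2 on igraph 0.11.9 for clustering, scikit-learn 1.9.0 for components and neighbors, scipy 1.17.1 for intervals, numba 0.67.0 and numpy 2.4.6 for cell calling, pandas 2.3.3 for tables, biopython 1.88 for transcript alignment and matplotlib 3.10.9 for plots.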

Additional observations from a re-analysis of the deposited data

Results flagged for a closer look

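Of the Bglap UMIs in called control callus barcodes, 45.1% lay in barcodes removed as doublets, and of the Bglap2 UMIs 55.1%, so much of the osteocalcin signal of that library is outside the cells compared. For Bglap2 summed over all kept cells, the log2 ratio between GC and control was 0.33 in callus and -1.22 in trabecular bone. Alpl had 0.22 in callus and -0.43 in trabecular bone. The directions were opposite in the tissues for both genes, although that of Bglap2 in callus turned in 4 of 8 alternatives (down to -0.43, with at least 500 genes per cell), into the direction of trabecular bone. For Alpl the callus value was 0.19 to 0.27 in 8 alternatives. With 1 library per group the difference was not tested, and the trabecular values rest on 254 and 12 UMIs for Bglap2 and 108 and 40 for Alpl. Of these Alpl UMIs, 76 in control lay in 3 stromal cells and 33 in GC lay in 2.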

How the results depend on the processing

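No leave-one-out analysis was possible with 1 library per group. No paired analysis was possible because each group has 1 library. The largest dependence was that of osteocalcin in osteoblasts or osteocytes, where the direction turned. The log2 ratio of Bglap, 1.30 as reported, was -0.99 with every barcode of at least 1000 UMIs, -0.92 with at least 500 genes per cell, -0.66 with at most 5% mitochondrial UMIs and -0.65 without doublet removal. That of Bglap2, 1.08 as reported, was -0.71, -0.65, -0.41 and -0.41 under the same 4. Why the other filters turned it was not tested. In that class Dmp1 (-2.04 to -0.83), Spp1 (-0.74 to -0.30) and Ibsp (0.24 to 0.70) kept their direction in all 16 alternatives. In hypertrophic chondrocytes Ibsp (0.43 to 1.15) and Dmp1 (-1.45 to -0.03) kept theirs in all 17, with the lowest size of Dmp1 where clusters were named by marker score alone. The join of both chondrocyte classes was not counted among these 17 for single genes, and there Dmp1 was higher in GC callus. In stromal cells Ank kept its direction in 10 of 17 (-1.0 to 0.76).

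Medians over the members moved as follows. For osteoblasts or osteocytes (-0.07) they were 0.055 with no UMI minimum, -0.19 for the mean over cells, 0.067 with thinned cells, -0.34 with barcodes of at least 1000 UMIs, -0.49 with at least 500 genes, -0.39 with at most 5% mitochondrial UMIs and -0.46 without doublet removal, and Leiden resolution 0.5 gave no such class. For hypertrophic chondrocytes (-0.18) they were -0.070, 0.16, -0.35, -0.030 and -0.52 under the settings with values above, without the mean over cells and another setting. Which other setting was left out is not given, so these values cannot be matched to single settings. They were further -0.32 with the B cell level subtracted, -0.42 and -0.38 at Leiden resolution 0.5 and 2 and -0.28 with members allowed among variable genes. Names by score alone gave 0.019, leaving out clusters over 90% from 1 library gave -0.35, and both chondrocyte classes as 1 gave 0.20. For chondrocytes (0.33) they were 0.23 with a pseudocount of 20 CPM, 0.26 with the B cell level subtracted, 0.25 with at least 1000 UMIs, 0.40 with at most 5% mitochondrial UMIs, 0.29 without doublet removal or with members allowed, 0.27 at Leiden resolution 0.5 and 2 and without 1-library clusters, and 0.20 with both classes as 1. For stromal cells (0.44) they were 0.55 for the mean over cells, 0.17 with at least 1000 UMIs, 0.25 with at least 500 genes, 1.0 with at most 5% mitochondrial UMIs, 0.34 without doublet removal, 0.13 and 0.16 at Leiden resolution 0.5 and 2 and 0.15 by score alone. Spp1 in osteoclasts (0.39) was 1.69 with the B cell level subtracted, 0.30 for the mean over cells, 0.16 thinned, 0.29 with at most 5% mitochondrial UMIs and -0.22 without doublet removal. In macrophages and monocytes (0.48) it was 1.43, 0.23 and 0.27 under the first 3 of these and 0.34 without doublet removal. For the whole callus (0.22) the median was 0.15 with a pseudocount of 20 CPM and 0.17 with at least 500 genes. For whole trabecular bone (-0.25) it was -0.51 and -0.079 with pseudocounts of 1 and 20 CPM, -0.049 with no UMI minimum and -0.50 with at most 5% mitochondrial UMIs. The number of members highest in osteoblasts or osteocytes was 6 or 7 in the 12 alternatives that gave it.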

Other observations

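Of 15 mineralization partners (genes that act on phosphate, pyrophosphate or matrix mineral), 10 had enough UMIs in callus osteoblasts or osteocytes, with 0 called higher and 1 lower in GC, where 1.2% and 2.36% of all genes were called. That gene was Mgp, the matrix Gla protein that inhibits calcification, at 1058 CPM in control and 148 in GC (ratio 0.140). The partners' median log2 ratio was -0.07. In hypertrophic chondrocytes 11 were measured and Omd, the matrix protein osteomodulin, was called higher at 23.5 and 80.7 CPM (3.44), where 3.25% of genes were. In stromal cells 9 were measured with 0 calls (1.92% higher and 3.24% lower among all genes), and Smpd3, a sphingomyelinase needed for mineralization, was 134 and 261 CPM (1.95). In osteoclasts 3 of 7 were lower, where 2.07% of genes were, among them Sparc, the collagen-binding osteonectin, at 736 and 248 CPM. This was not particular to osteoclasts, as 3 of 6 partners were lower in macrophages and 2 of 8 in monocytes. There 2.52% and 3.51% of all genes were called lower. In mature neutrophils and in B cells 0 of 7 partners were called lower. Their median log2 ratios there were -0.70 and -0.44, against -0.0004 and -0.16 for all genes. In T cells 3 of 6 were called lower, in conventional dendritic cells 3 of 4 and in granulocyte-monocyte progenitors 2 of 3. In immature neutrophils and in erythroid cells 0 of 3 were. The share of all genes called lower is not given for these classes. The part of free RNA in these levels was not tested. In chondrocytes and in the whole callus 11 and 12 partners were measured, with 0 calls. In these, 2.27% and 3.29% of all genes were called higher and 4.89% and 2.17% lower. In whole trabecular bone 10 were measured, with 2 called higher and 2 lower, where 2.33% and 2.94% of genes were.

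Of 7 receptors for osteopontin and bone sialoprotein, 5 were measured in osteoblasts or osteocytes, 5 in stromal cells and 5 in hypertrophic chondrocytes. In osteoclasts 6 were measured, in the whole callus 7 and in whole trabecular bone 6. Each had 0 calls, where between 1.2% and 3.29% of all genes were called in a direction. With so few receptors, 0 calls is near those shares. In chondrocytes 7 were measured, with the integrin chain Itgb3 called higher (2.03) and Itga4 lower (0.44), where 2.27% and 4.89% of genes were. With 5 CPM added to each level, the lowest log2 ratio of the 7 was only -0.15. The call of Itga4 therefore rests on a low level. In osteoclasts Itgb3, which pairs with Itgav in the receptor osteoclasts use on bone, was 46.3 and 90.7 CPM (1.96), and Itgav 486 and 508 CPM.

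Over 36 points (18 callus classes in both libraries), the genes whose log2 level was most like a member's among 12368 were Slc8a3 for Ibsp (Pearson r 0.980) and for Phex (0.919), Kcnk1 for Bglap2 (0.957), Col11a1 for Alpl (0.971), Rhbdl2 for Dmp1 (0.928), 9130024F11Rik for Bglap (0.915), Fstl3 for Enpp1 (0.910), Mdk for Spp1 (0.876), Zfp469 for Ank (0.841) and Gm15417 for Phospho1 (0.748). The points share 2 libraries, and these values are a description.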
